A study of Mus musculus with 55 samples.

Results

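The Kruppel-like factors are a family of zinc finger transcription factors, and 9 of their genes were followed here in mouse bone marrow: Klf2, Klf3, Klf4, Klf6, Klf7, Klf9, Klf10, Klf12 and Klf13. The members were chosen by symbol, whatever their level, and each has 1 row among the 55421 genes of the first count table. They were measured by bulk RNA-seq in 55 libraries of sorted cells from C57BL/6 mice. The first table holds 46 libraries of 6 populations from wildtype (WT) mice and mice labelled Tet2 knockout (Tet2 KO), and the second holds 9 libraries of long-term hematopoietic stem cells from WT, Sting knockout (Sting KO) and Tet2/Sting double knockout (DKO) mice.

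The Tet2 KO mice carried floxed Tet2 alleles and an Mx1-Cre transgene, which poly(I:C) injections switch on through its interferon-inducible promoter. Induction was shortly after weaning, and the mice of the stem and progenitor libraries were kept for some months after it so that acute effects of poly(I:C) could pass. Other experiments of the study used another wait. The labels give no age per library, and whether the mice of both tables were of like age is not given in the sources used here. The DKO mice had the same floxed Tet2 alleles and Mx1-Cre on a germline Sting-/- background, so they received the same induction, while the Sting KO mice lacked Sting from birth. Whether the WT mice of these libraries received poly(I:C), or carried Cre, is not given in the sources used here, so loss of Tet2 and any lasting trace of the injections cannot be told apart. Mx1-Cre acts in many cell types of the marrow and in other interferon-responsive tissues, and deletion can be incomplete.

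Cells were sorted from the Lin- cKit+ fraction of the marrow. Long-term stem cells (LT-HSC) were Sca1+ CD48- CD150+ and short-term stem cells (ST-HSC) were Sca1+ CD48- CD150-. Among Sca1- cells, common myeloid progenitors (CMP) were CD34 intermediate to positive with intermediate CD16/32, granulocyte-monocyte progenitors (GMP) were CD34+ with high CD16/32, and megakaryocyte-erythroid progenitors (MEP) were CD34- with low CD16/32. Common lymphoid progenitors (CLP) were Sca1 intermediate and CD127+. The labels give 200 cells per library, and the methods give a higher number. There were 4 libraries for each population and genotype of the first table, but 3 for WT LT-HSC and 3 for WT ST-HSC, and 3 for each genotype of the second. WT replicate 4 has no LT-HSC and no ST-HSC library. The replicate numbers 2 to 5 are read here as naming mice, so libraries of 1 number and genotype are taken to come from the same mouse. The labels do not say so.

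Kruppel-like factors share a set of zinc fingers at the carboxyl end that bind CACCC boxes and related GC-rich stretches of DNA, and they differ in the amino-terminal part that recruits partners. Klf2, Klf4, Klf6 and Klf7 mostly activate transcription. Klf3 and Klf12 recruit the corepressor CtBP, and Klf9, Klf10 and Klf13 recruit Sin3A and its histone deacetylases. In blood cells, Klf2 is best known for keeping T cells quiescent and Klf4 for monocyte differentiation, while Klf3 is a target of Klf1 in erythroid cells.

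The promoters of the 3 members that the results below turn on most are shown first: Klf2 and Klf6, whose levels ran together over the libraries, and Klf13, whose difference between the genotypes varied with the population. Each is the 250 bases before the RefSeq start site, on GRCm38.p6 (mm10), 5′ to 3′ on the strand of the gene, with CACCC boxes (CACCC or GGGTG) and GC boxes (GGGCGG or CCGCCC) in capitals. The windows are chr8:72318812-72319061 on the plus strand, chr13:5861239-5861488 on the plus strand and chr7:63938916-63939165 on the minus strand.
Klf2: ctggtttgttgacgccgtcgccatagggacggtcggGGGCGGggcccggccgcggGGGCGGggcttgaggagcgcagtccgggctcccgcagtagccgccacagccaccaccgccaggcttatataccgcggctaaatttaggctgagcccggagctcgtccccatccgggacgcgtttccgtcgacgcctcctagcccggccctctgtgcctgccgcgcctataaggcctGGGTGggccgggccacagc
Klf6: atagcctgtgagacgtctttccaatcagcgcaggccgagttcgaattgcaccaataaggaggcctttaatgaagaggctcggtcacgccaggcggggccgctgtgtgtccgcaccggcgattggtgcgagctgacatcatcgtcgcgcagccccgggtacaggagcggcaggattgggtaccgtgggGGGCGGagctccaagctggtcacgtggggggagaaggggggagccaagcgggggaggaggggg
Klf13: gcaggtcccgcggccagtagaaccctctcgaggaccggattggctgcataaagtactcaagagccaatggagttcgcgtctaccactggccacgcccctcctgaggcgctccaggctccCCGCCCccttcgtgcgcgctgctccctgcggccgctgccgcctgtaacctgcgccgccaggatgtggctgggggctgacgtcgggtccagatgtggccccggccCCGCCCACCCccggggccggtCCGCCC
The Klf2 window holds 1 CACCC box and 2 GC boxes, the Klf6 window holds no CACCC box and 1 GC box, and the Klf13 window holds 1 CACCC box and 3 GC boxes. In the Klf13 window the CACCC box and a GC box overlap. Of 32851 RefSeq promoter windows of the same length, 52.01% hold at least 1 CACCC box and 32.74% at least 1 GC box. The 8 members with a RefSeq promoter, which are all but Klf10, ran from 48.0% GC in Klf12 to 78.4% in Klf3, and 7 of the 8 were above the 52.4% median of all windows. Klf3 had 5 CACCC boxes, a number reached or passed by 0.67% of the windows, and 6 GC boxes, 1 of which overlaps a CACCC box. These matches describe letters, not binding.

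The libraries of the first table held 50458473 to 102148079 counts and those of the second 26775681 to 78680486, and the second set detected 9380 to 11526 genes against 13754 to 20964 in the first. GMP marker genes summed to 31830 to 46030 CPM (counts relative to library depth after TMM scaling) in GMP and MEP marker genes to 13040 to 19450 in MEP. The CLP libraries held 613.9 to 1274 CPM of CLP markers in WT and 452.4 to 2272 in Tet2 KO, but up to 3177 and 12450 CPM of GMP markers. Some of them thus held more GMP than CLP marker RNA, and whether their cells all met the surface gate was not tested. Tet2 itself was not lower as its label would have it. Its mean was 13.2 CPM in WT and 23.96 CPM in Tet2 KO LT-HSC, and its log2 fold change over the 6 populations ran from −0.37 to 1.23 with no adjusted p under 0.05 (edgeR). The counts span the whole gene, so reads of exons outside the floxed part are included and the check is a weak one. In the second set, Tmem173, the gene of Sting, had at least 1128 counts in 3 of 6 libraries whose label says that Sting was deleted. Every direction between genotypes below is therefore one between libraries as labelled.

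Levels are given in CPM, as mean ± SD over libraries. A member was called changed at a Benjamini-Hochberg adjusted p under 0.05 over all genes tested and at least a 2-fold change in edgeR's quasi-likelihood test. Folds are ratios of mean CPM, and log2 fold changes are those of the fit. The ± after a log2 fold change is an approximate SE, its absolute value divided by the square root of the F statistic. In bulk samples fewer cells of a type and less RNA per cell cannot be told apart. Only levels per kilobase of gene length compare one gene with another. By that measure Klf6 was the leading member in every population of both genotypes except MEP, where Klf13 led. In WT LT-HSC, Klf6 stood at 160.2 CPM per kb, followed by Klf2 at 45.29, Klf13 at 44.99 and Klf9 at 29.0 CPM per kb. In WT MEP the order was Klf13 at 35.65, Klf6 at 16.66, Klf10 at 15.77, Klf9 at 13.48 and Klf3 at 9.11 CPM per kb. Summed over the 9 members, the level per kb in WT was 305.0 in LT-HSC, 295.9 in ST-HSC and 304.9 in CLP, against 165.5 in CMP, 141.1 in GMP and 92.1 in MEP. The CLP sum depends on the scaling. The TMM factors of CLP libraries were 0.546 to 0.709 in WT and 0.736 to 1.08 in Tet2 KO, and without them the sum in WT CLP was 193.5, near the 185.1 of CMP and below the 335.2 of LT-HSC. Lengths are those listed in the second table, where Klf12 has 18113 bases against 6985 exonic bases in GENCODE vM21, Klf3 has 5350 against 11243 and Klf9 has 3263 against 4815, so that the levels per kb of these 3 depend on the transcripts counted.

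**Figure D1:**
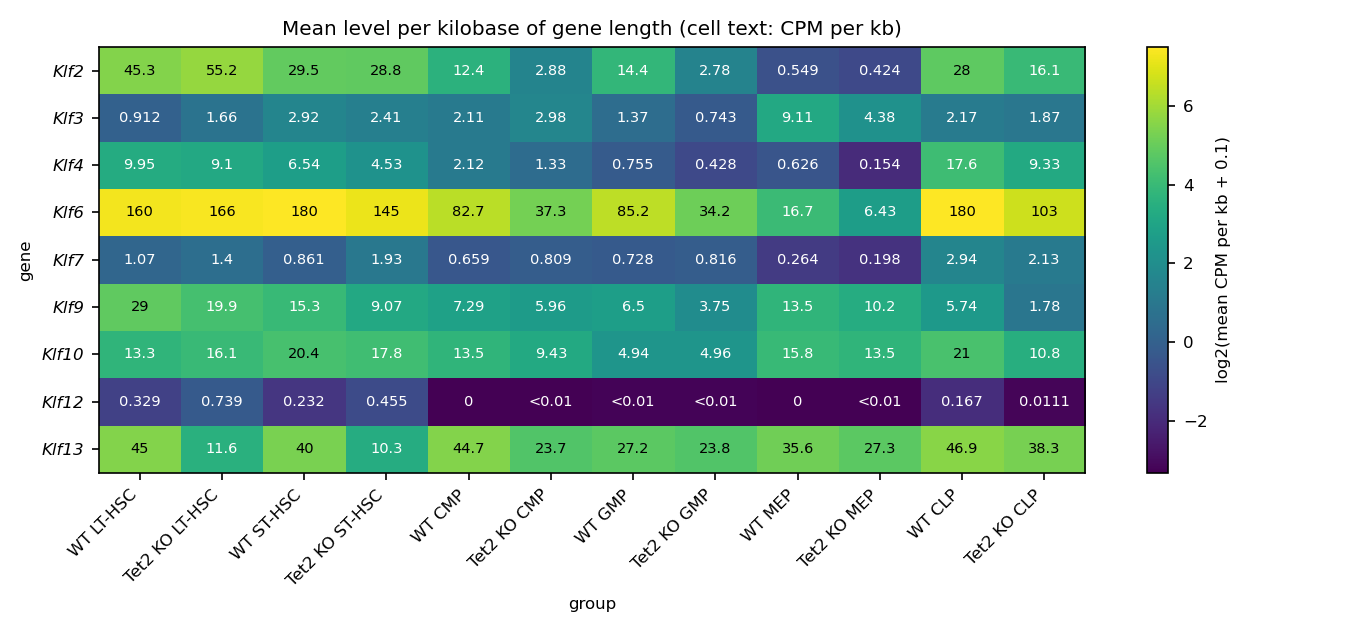
Mean level of the 9 members per kilobase of gene length in each group of the first table, with the value in CPM per kb in each cell and colour on a log2 scale. The Klf6 row is the highest in every column but the MEP columns, where Klf13 is higher.

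Over the 6 WT populations, 8 of the 9 members varied (edgeR, F test over populations, adjusted p under 0.05), all but Klf13 with an adjusted p of 0.065. Of all 20006 genes tested, 44.6% varied. In the libraries labelled Tet2 KO 7 of the 9 varied, against 40.2% of all genes, the exceptions being Klf3 (adjusted p = 0.12) and Klf9 (adjusted p = 0.13). With the mouse as a block, Klf13 joined the WT calls (adjusted p = 0.015) and Klf7 left them (adjusted p = 0.064). Klf13 was also called with RLE scaling (0.021) and without a scaling factor (0.028), where Klf7 was not (0.086).

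Klf2, an activator that holds lymphocytes in quiescence, was high in both stem cell populations and in CLP and close to 1 CPM in MEP. Its WT LT-HSC libraries measured 69.4, 83.9 and 93.5 CPM, and those of WT ST-HSC 47.4, 44.5 and 69.0 CPM. WT CMP gave 8.36, 12.4, 32.0 and 37.6 CPM and WT GMP 9.80, 27.9, 28.3 and 38.7 CPM. Both populations overlapped fully, with replicate 2 the lowest in both. For CMP against ST-HSC, DESeq2 called Klf2 lower (log2 fold change −1.32, adjusted p = 0.035) and edgeR did not. In the 4 WT MEP libraries Klf2 lay between 0.85 and 1.26 CPM, below every other WT library of the first table. That was 22.7-fold below CMP (log2 fold change −4.55 ± 0.48 SE, adjusted p = 3.1e-06) and 26.2-fold below GMP (adjusted p = 9.0e-07). WT CLP held 42.2, 66.9, 45.5 and 48.5 CPM. Without scaling these libraries lay from 24.9 to 39.6 CPM and overlapped CMP and GMP.

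Klf6, an activator that binds GC-rich promoters, was likewise lowest in MEP and stood at a higher level. In WT LT-HSC it measured 598, 771 and 657 CPM, in ST-HSC 705, 707 and 865 CPM, and in CLP 529, 716, 869 and 929 CPM, and these populations overlapped one another. WT CMP held 275, 342, 341 and 436 CPM and WT GMP 259, 375, 360 and 443 CPM. The 4 WT MEP libraries lay from 65.3 to 81.2 CPM and overlapped no other population. Klf6 was 2.18-fold lower in CMP than in ST-HSC (log2 fold change −1.13 ± 0.20, adjusted p = 0.0017) and 4.96-fold lower in MEP than in CMP (−2.36 ± 0.20, adjusted p = 2.4e-07). Without scaling Klf6 was highest in ST-HSC and not in CLP.

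Klf4, the factor of monocyte differentiation and of reprogramming to pluripotency, fell step by step along the myeloid branch and was highest in CLP. WT CLP libraries held 34.6, 59.4, 44.7 and 75.7 CPM, WT LT-HSC 17.7, 35.6 and 37.4 CPM, and WT ST-HSC 18.5, 14.6 and 26.6 CPM. CMP measured 6.46 ± 1.26 CPM (n = 4), GMP 2.30 ± 0.907 CPM and MEP 1.91 ± 0.267 CPM. Klf4 was 2.69-fold higher in CLP than in ST-HSC (log2 fold change 1.46 ± 0.38, adjusted p = 0.0077), 3.08-fold lower in CMP than in ST-HSC (−1.63 ± 0.37, adjusted p = 0.0097), 2.81-fold lower in GMP than in CMP (−1.46 ± 0.35, adjusted p = 0.018) and 3.39-fold lower in MEP than in CMP (−1.80 ± 0.35, adjusted p = 0.0023). GMP and MEP overlapped. The step from ST-HSC to CMP was no longer called without ST-HSC replicate 5 (adjusted p = 0.073), and that from CMP to GMP not without GMP replicate 2 (0.053) or 3 (0.062). A fit of CLP and ST-HSC alone gave an adjusted p of 0.054 for that pair, and without a scaling factor the log2 fold change was 0.65 with an adjusted p of 0.20.

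Klf3, the CtBP-dependent repressor, ran the other way and peaked in MEP. Its WT MEP libraries measured 51.5, 52.0, 51.2 and 40.2 CPM, all above every other WT library, of which the highest was a CLP library at 25.2 CPM. LT-HSC held the least, 2.28, 9.56 and 2.79 CPM. ST-HSC at 15.7 ± 1.73, CLP at 11.6 ± 9.12, CMP at 11.3 ± 5.95 and GMP at 7.35 ± 1.56 CPM overlapped along the order. Klf3 was 4.31-fold higher in MEP than in CMP (log2 fold change 2.07 ± 0.54, adjusted p = 0.018) and 6.63-fold higher in MEP than in GMP (log2 fold change of GMP against MEP −2.66 ± 0.55, adjusted p = 0.0016). The call against CMP was lost without CMP replicate 4 or 5 (adjusted p = 0.055 and 0.054). In GENCODE, Klf3 shares 404 exonic bases, 3.59% of its own, with the opposite-strand gene Gm20033, and these libraries do not mark strand.

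Klf7, an activator known from neurons and lymphoid cells, was low throughout. Its WT means ran from 2.11 ± 1.25 CPM in MEP to 23.5 ± 24.5 CPM in CLP, where single libraries lay at 58.9, 15.4, 2.31 and 17.3 CPM. All neighbours in that order overlapped, and edgeR called no contrast between WT populations, while DESeq2 called Klf7 higher in CLP than in ST-HSC (log2 fold change 1.86, adjusted p = 0.0495). More of its exonic bases, 3196 or 39.31%, lie opposite the long noncoding gene Gm26649, whose reads could not be separated.

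Among the Sin3A-recruiting repressors, Klf9 was highest in LT-HSC and Klf10 lowest in GMP. Klf9, a target of glucocorticoid and thyroid hormone receptors, measured 90.9, 120.9 and 72.1 CPM in WT LT-HSC and 46.1, 54.4 and 49.5 CPM in ST-HSC, without overlap. MEP at 44.0 ± 15.0 CPM lay above CMP at 23.8 ± 6.52 and GMP at 21.2 ± 4.75 CPM, and the CLP libraries scattered at 18.0, 1.28, 40.6 and 15.0 CPM. No contrast of Klf9 was called in the fit of all 6 populations. In fits of the 2 populations alone, Klf9 was lower in CMP than in ST-HSC in WT (adjusted p = 0.017) and lower in GMP than in MEP in WT (0.0066) and in Tet2 KO (0.00040), and without a scaling factor it was lower in CLP than in ST-HSC in WT (0.0058). Klf10, an early response gene of TGF-beta, held 21.5, 24.1, 20.7 and 22.5 CPM in the 4 WT GMP libraries, below every other WT library. It was 2.73-fold lower there than in CMP (log2 fold change −1.42 ± 0.25, adjusted p = 0.0019) and 3.19-fold lower than in MEP (−1.60 ± 0.25, adjusted p = 0.00013). Its other WT means lay between 59.6 CPM in LT-HSC and 94.3 CPM in CLP. Klf13, a regulator of Ccl5 in T cells, ran from 174 ± 11.7 CPM in GMP to 300.1 ± 39.6 CPM in CLP, and only MEP and GMP of its neighbours did not overlap. Without scaling, the highest WT population of Klf10 was ST-HSC and that of Klf13 was CMP, with CLP the lowest.

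Klf12, a CtBP-binding repressor, was detected in every WT library of the stem cells and in few others. LT-HSC libraries held 4.198, 8.88 and 4.81 CPM and ST-HSC libraries 5.35, 2.56 and 4.68 CPM. All 4 WT CMP and all 4 WT MEP libraries had 0 counts, 3 of 4 GMP libraries had 0 and the last 39 counts, and the CLP libraries had 0, 96, 328 and 4 counts. Taking 3 counts in each CMP library as the most that a count of 0 allows, Klf12 was at least 105-fold lower in CMP than in ST-HSC. The adjusted p was 0.041, and it rose to 0.067 with the mouse as a block, to 0.057 without the low-count filter, and to 0.070 to 0.093 when any 1 of the 7 libraries was left out. With 200 cells a library, a transcript at this level can be missed, and the limit covers counting error only.

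**Figure D2:**
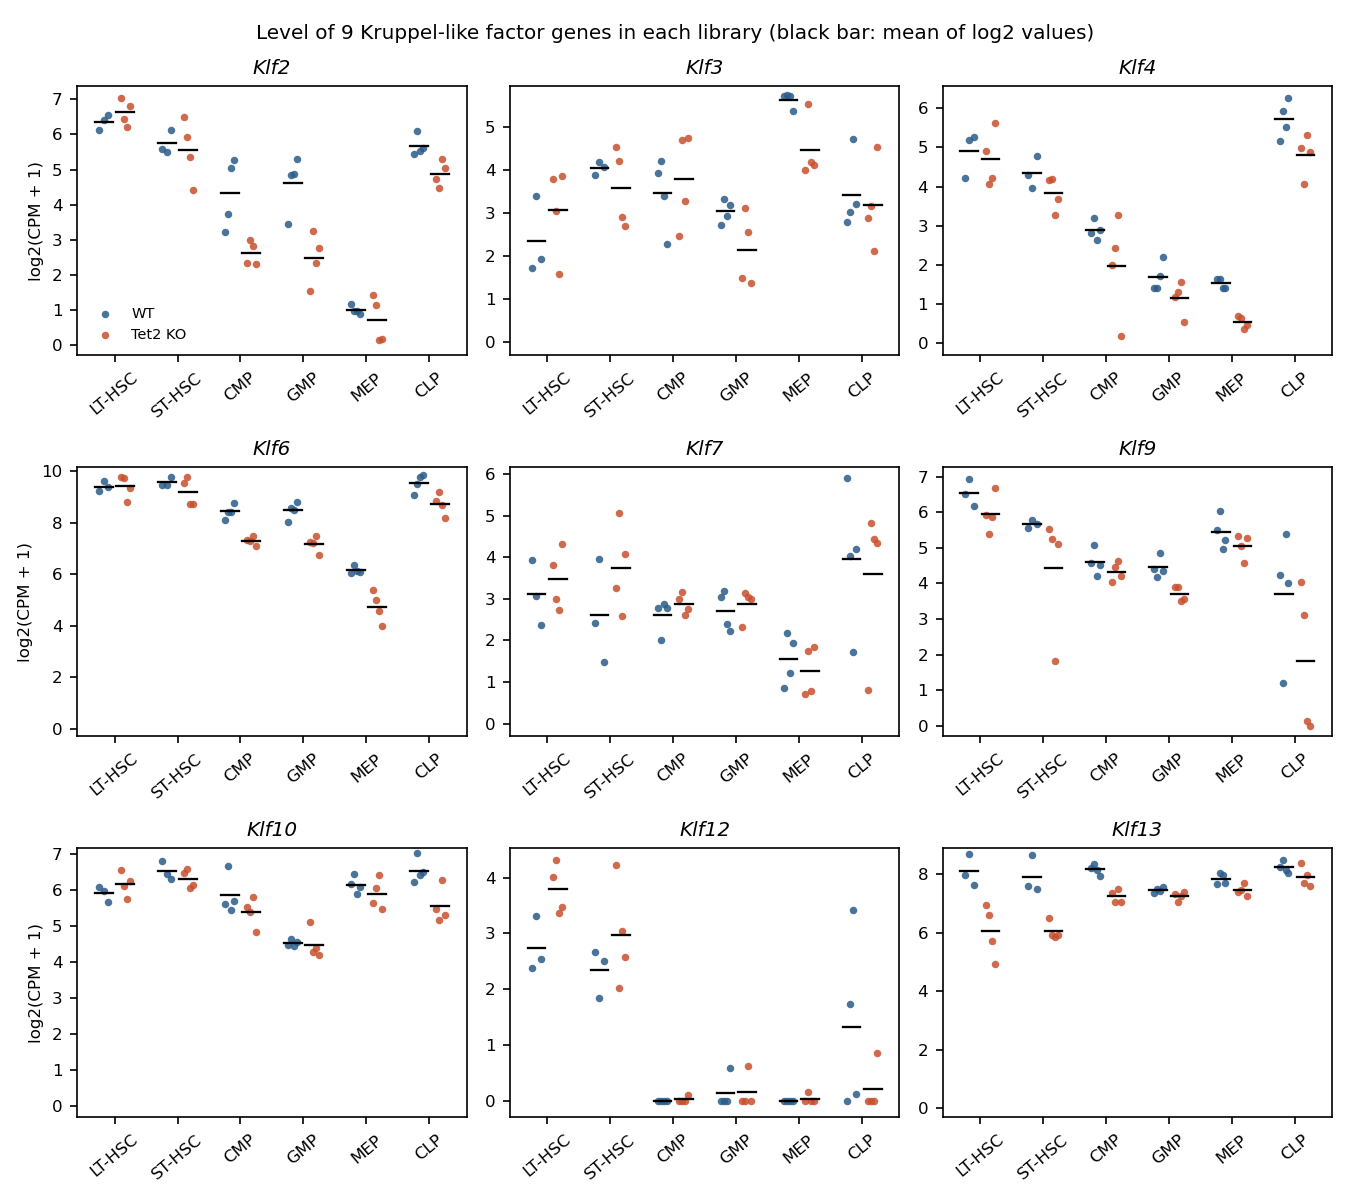
Level of each member in every library of the first table as log2(CPM + 1), by population, with WT in blue, Tet2 KO in orange and a black bar at the mean of the log2 values. Klf2, Klf4 and Klf6 are lower in MEP than in stem cells, Klf3 peaks in MEP, and Klf13 separates the genotypes in LT-HSC and ST-HSC.

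Read by contrast, the WT members called were 0 for ST-HSC against LT-HSC (0.175% of all genes called), 3 for CMP against ST-HSC (Klf4, Klf6 and Klf12 lower, against 5% of all genes), 1 for CLP against ST-HSC (Klf4 higher, 24.5%), 2 for GMP against CMP (Klf4 and Klf10 lower, 3.15%), 4 for MEP against CMP (Klf3 higher, Klf2, Klf4 and Klf6 lower, 6.46%) and 4 for GMP against MEP (Klf2 and Klf6 higher, Klf3 and Klf10 lower, 14.7%). For ST-HSC against LT-HSC, edgeR gave 2 members with an unadjusted p under 0.05, Klf3 and Klf10, and DESeq2 called 0.

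The libraries labelled Tet2 KO, which come from other mice, gave the same 4 calls for GMP against MEP (15.7% of all genes called): Klf2 6.56-fold higher (adjusted p = 0.0074), Klf6 5.32-fold higher (1.3e-05), Klf3 5.90-fold lower (0.027) and Klf10 2.72-fold lower (0.0026). The MEP libraries of Klf2 lay apart, at 1.69, 1.18, 0.0904 and 0.113 CPM, and without MEP replicate 2 its log2 fold change went from 2.76 to 3.51. The Klf3 call was lost without GMP replicate 2, 4 or 5 (adjusted p = 0.082, 0.053 and 0.083) or MEP replicate 3 (0.11). Klf7 was also called higher with the mouse as a block (log2 fold change 2.31, adjusted p = 0.032), by DESeq2 (0.016) and in a fit of the 2 populations alone (0.015). For MEP against CMP, 3 members were called lower (3.62% of all genes called in either direction): Klf6 by 5.81-fold (2.4e-05), Klf2 by 6.81-fold (0.024) and Klf4 by 8.61-fold (0.019), although its CMP replicate 5 at 0.136 CPM lay below every MEP library. Without MEP replicate 2 the log2 fold change of Klf2 went from −2.75 to −3.497. Klf2 was lost without CMP replicate 3 or 4 or MEP replicate 4 or 5 (0.055 to 0.067), and Klf4 without CMP replicate 4 or MEP replicate 4 or 5 (0.071 to 0.087), where its log2 fold change went from −3.09 to −2.42 without CMP replicate 4. In a fit of MEP and CMP alone both missed the threshold (0.070 and 0.059) and Klf7 was called lower (log2 fold change −2.03, adjusted p = 0.031), as it was by DESeq2 (0.042).

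For CMP against ST-HSC in Tet2 KO, 3.33% of all genes were called, and among the members Klf2 was 9.99-fold lower (log2 fold change −3.34 ± 0.71, adjusted p = 0.011), Klf6 3.88-fold lower (−1.98 ± 0.31, 0.0015) and Klf13 2.29-fold higher (1.17 ± 0.30, 0.031). Klf12 narrowly missed the threshold (adjusted p = 0.056) and was called in a fit of the 2 populations alone (0.0066) and by DESeq2 (0.0027). The Klf13 call was lost in 7 of the 8 fits that leave out a library, all but that without ST-HSC replicate 2, with adjusted p from 0.055 to 0.097. For CLP against ST-HSC (20.1% of all genes called), Klf13 was 3.70-fold higher (1.87 ± 0.31, adjusted p = 0.00021). Neither GMP against CMP (3.08%) nor ST-HSC against LT-HSC (0.118%) had a member called by edgeR or by DESeq2. At an unadjusted p under 0.05 edgeR gave 3 members, Klf3, Klf4 and Klf10, and 0 members, respectively.

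**Figure D3:**
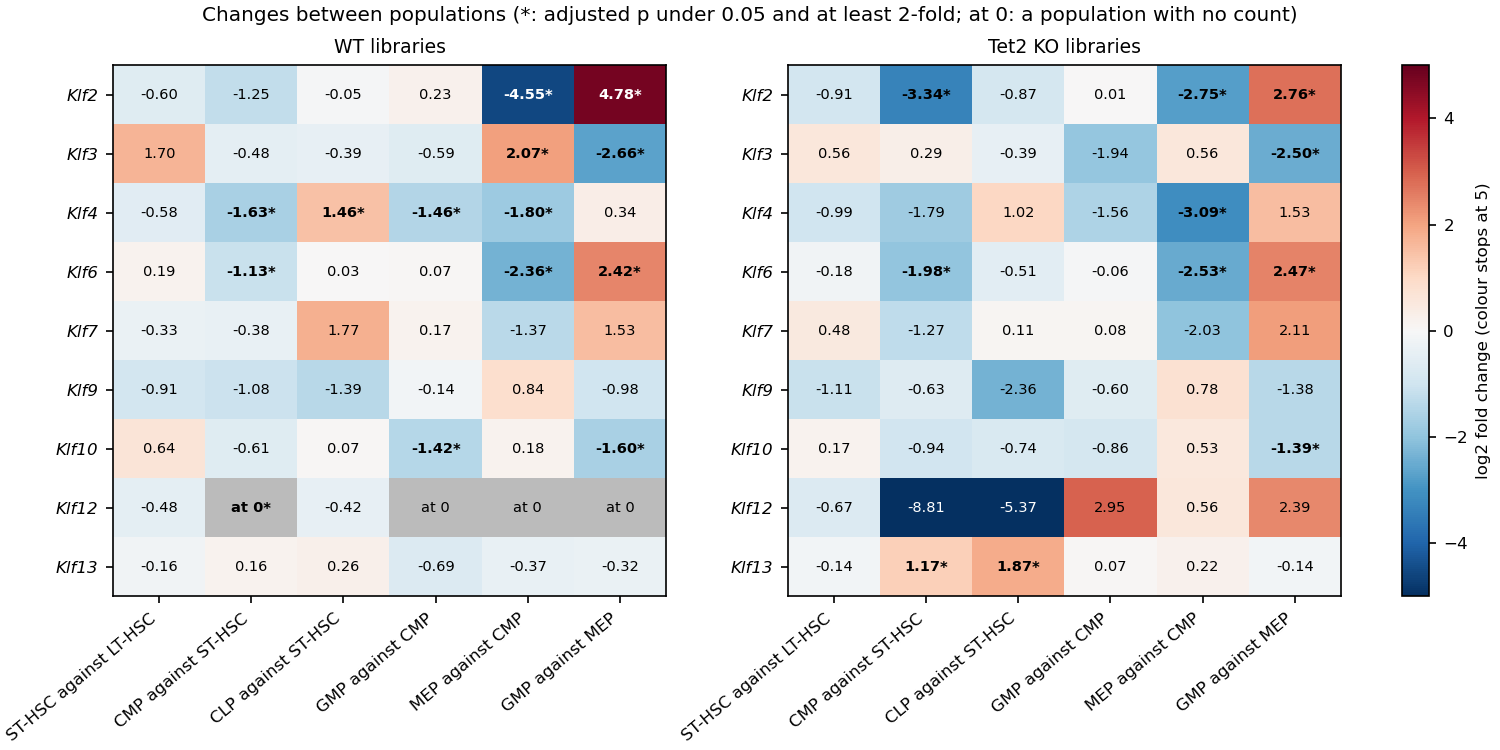
Log2 fold change of each member in 6 contrasts between populations, fitted within WT (left) and within Tet2 KO (right), with red for higher and blue for lower in the first-named population and an asterisk at each call. Grey cells marked at 0 involve a population with no Klf12 count. The columns MEP against CMP and GMP against MEP hold the strongest Klf2 and Klf6 values in WT.

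Between the genotypes, Klf2 and Klf6 fell in the myeloid progenitors labelled Tet2 KO. In GMP, Klf2 measured 1.92, 8.44, 4.05 and 5.79 CPM in Tet2 KO against 9.80 to 38.7 CPM in WT, and in CMP 4.00, 6.89, 6.08 and 3.98 CPM against 8.36 to 37.6 CPM. The genotypes did not overlap in either population. Klf2 was thus 5.18-fold lower in GMP (log2 fold change −2.42 ± 0.48, adjusted p = 0.010) and 4.31-fold lower in CMP (−2.12 ± 0.49, adjusted p = 0.030). The GMP call stood in every fit that left out a library. The CMP call was lost in 6 of 8 such fits, without Tet2 KO replicate 2, 3, 4 or 5 or WT replicate 4 or 5, with adjusted p from 0.055 to 0.0999, as well as without the low-count filter (0.053) and with all 46 libraries in 1 fit (0.059). In MEP, where Klf2 was near 1 CPM in WT, and in LT-HSC and ST-HSC the genotypes overlapped. In CLP, the Tet2 KO libraries at 25.3, 21.3, 38.3 and 31.8 CPM all lay under the lowest WT library at 42.2 CPM, without a call. Without scaling the CLP genotypes overlapped, at 23.0 to 28.7 CPM in Tet2 KO and 24.9 to 39.6 CPM in WT.

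Klf6 was lower in Tet2 KO in 3 populations. In CMP it held 159, 156, 179 and 136 CPM against 275 to 436 CPM in WT, 2.21-fold lower (log2 fold change −1.16 ± 0.15, adjusted p = 0.0016). In GMP it held 152, 146, 175 and 105 CPM against 259 to 443 CPM, 2.49-fold lower (−1.35 ± 0.19, adjusted p = 0.0011). In MEP it held 40.3, 30.9, 22.5 and 14.7 CPM against 65.3 to 81.2 CPM, 2.59-fold lower (−1.39 ± 0.27, adjusted p = 0.016). No library of one genotype reached the range of the other in these populations. The MEP call was lost without Tet2 KO replicate 4 (adjusted p = 0.057) or WT replicate 3 (0.0502), and WT replicate 3 was the highest WT library. In CLP the levels were 433 ± 121 CPM in Tet2 KO and 761 ± 179 CPM in WT and overlapped. LT-HSC held 702 ± 203 and 676 ± 88.0 CPM and ST-HSC 611 ± 229 and 759 ± 91.6 CPM, in the same order. The share of mitochondrial counts also differed, at 7.85% to 8.37% in Tet2 KO and 5.94% to 6.57% in WT CMP, 4.74% to 5.09% and 3.64% to 4.598% in GMP, and 8.96% to 9.74% and 6.85% to 9.18% in MEP, overlapping only in MEP. Its part in the Klf2 and Klf6 results was not tested.

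Members called in these comparisons were 2 of 8 tested in CMP, where 4.57% of all genes were called and 3.92% were called lower, 2 of 8 in GMP (4.38% and 4.07%) and 1 of 8 in MEP (4.36% and 4.21%), each of them lower in Tet2 KO. Klf12 was filtered as too low in those populations and in CLP. In LT-HSC, ST-HSC and CLP no member was called by edgeR in the fit of each population alone, and 0.0245%, 0.0185% and 0.00766% of all genes were. With all 46 libraries in 1 fit, edgeR called 20, 21 and 1477 genes there against 4, 3 and 1. Among these genes were Klf13 in LT-HSC and ST-HSC (adjusted p = 0.00034 and 0.00033) and Klf10 in CLP (0.020). In the edgeR fits of each population alone, 2, 1 and 2 members had an unadjusted p under 0.05. DESeq2 called 1 member in LT-HSC, 1 in ST-HSC and 0 in CLP. Of all genes it called 233, 332 and 472 there, against the 4, 3 and 1 of edgeR. The median log2 fold change of the members was −0.61 in CMP, −0.85 in GMP, −0.42 in MEP and −0.85 in CLP, against 0.03, 0.03, 0.05 and 0.07 over all genes, and all 8 members tested had a negative value in MEP and in CLP. The CLP values depend on the scaling. Without it the median of all genes was 0.61 there, and Klf3 (0.30) and Klf13 (0.25) were positive. In LT-HSC and ST-HSC the medians were 0.29 and −0.24, against 0.06 and 0.04. These medians cover only the members that passed the filter on low counts.

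Klf13 stood apart in the stem cells. In LT-HSC the libraries labelled Tet2 KO held 120.9, 95.4, 52.0 and 29.5 CPM, all under the WT libraries at 251, 415 and 197 CPM. In ST-HSC they held 89.1, 59.5, 56.5 and 59.9 CPM, again all under WT at 191, 400 and 177 CPM. The means differed 3.87-fold in both populations (log2 fold change −1.94 ± 0.47 and −1.91 ± 0.32). In LT-HSC, the edgeR fit of the 7 libraries gave an adjusted p of 0.45, and an exact permutation of log2 CPM over the libraries gave a two-sided p of 0.0571. In ST-HSC the adjusted p was 0.21, and the exact permutation p was 0.029, the smallest that 3 against 4 libraries allow. DESeq2 called Klf13 in both (adjusted p = 0.011 and 2.2e-05), and so did edgeR with all 46 libraries in 1 fit (0.00034 and 0.00033). WT replicate 3 was the highest WT library in both populations. In ST-HSC the share of mitochondrial counts was 10.01% to 13.1% in Tet2 KO and 8.73% to 9.02% in WT, without overlap. In LT-HSC it was 8.82%, 11.4%, 13.96% and 14.5% in Tet2 KO replicates 2 to 5, in which Klf13 ran from highest to lowest in the same order, and 8.02%, 9.499% and 9.12% in WT replicates 2, 3 and 5. The summed megakaryocyte markers in LT-HSC were 146.9 to 403.4 CPM in Tet2 KO and 421.4 to 431.2 CPM in WT, without overlap. The part of these measures in the Klf13 result was not tested.

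The difference between genotypes in Klf13 was not the same over the populations. In CMP Klf13 held 151.5 ± 23.2 CPM in Tet2 KO and 286 ± 32.3 CPM in WT, without overlap (log2 fold change −0.93 ± 0.13, adjusted p = 0.0028, under 2-fold, and −1.01 without Tet2 KO replicate 4, where it was called with an adjusted p of 0.0041). In GMP it held 152 ± 16.3 and 174 ± 11.7 CPM, in MEP 175 ± 24.2 and 228 ± 30.0 CPM, and in CLP 245 ± 64.2 and 300.1 ± 39.6 CPM, with log2 fold changes of −0.24, −0.39 and −0.33, the last of which was 0.25 without a scaling factor. An F test of the interaction of genotype and population over the 46 libraries gave an adjusted p of 0.0029 for Klf13. It was the only member called there, 1 of 9, against 2.65% of all genes. Klf6 (adjusted p = 0.074) and Klf2 (0.17) missed the threshold. That fit takes the 46 libraries as independent although they share mice. With the mouse as a block, an alternative chosen after the data were seen, Klf13 (adjusted p = 0.00094) and Klf6 (0.0095) were called and Klf2 was not (0.49), and without a scaling factor so were Klf13 (0.00075) and Klf6 (0.047). The fall of Klf2 in myeloid progenitors is not shown to differ from the other populations. In Tet2 KO the level of Klf13 was higher in CMP and CLP than in ST-HSC, with log2 fold changes of 1.17 and 1.87, and in WT the same contrasts were 0.16 and 0.26 on the log2 scale, the second of which was −0.56 without a scaling factor. When 1 library was left out, the WT values ran from −0.048 to 0.61 and from 0.050 to 0.71.

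Among the remaining members, Klf4 had the largest in MEP, where Tet2 KO libraries held 0.639, 0.577, 0.286 and 0.378 CPM against 1.66 to 2.14 CPM in WT, without overlap (log2 fold change −2.03 ± 0.51). Its adjusted p was 0.054 in edgeR and 2.3e-06 in DESeq2, which also called Klf3 in MEP (−1.07, adjusted p = 0.035). For Klf3 the Tet2 KO MEP libraries held 14.9, 45.3, 17.3 and 16.4 CPM, and replicate 3 lay inside the WT range. Without that library edgeR called Klf3 lower (−1.59, adjusted p = 0.0014). Klf9 had the largest difference in CLP (−1.72 ± 1.94, and −2.86 to −0.98 when 1 library was left out), where it measured 15.6, 7.60, 0.0998 and 0 CPM in Tet2 KO and scattered as widely in WT. In GMP, Klf9 fell to 12.2 ± 1.98 CPM from 21.2 ± 4.75 CPM without overlap (−0.84 ± 0.22, adjusted p = 0.043, under 2-fold). Klf12 in LT-HSC was the one member whose libraries labelled Tet2 KO all lay above WT, at 15.1, 19.0, 9.36 and 10.1 CPM against at most 8.88 CPM (1.18 ± 0.46, adjusted p = 0.87), and without scaling the genotypes overlapped. Klf13 in CMP, Klf9 in GMP and Klf12 in LT-HSC were picked out here after their values were seen. Klf7 and Klf10 overlapped between the genotypes in every population. In CLP, Klf10 held 43.6, 35.3, 76.3 and 38.9 CPM against 73.8 to 129.4 CPM in WT (−1.01 ± 0.36), and was called there with all 46 libraries in 1 fit (adjusted p = 0.020). The size of that difference depends on the scaling, without which its means were 42.6 CPM in Tet2 KO and 59.6 CPM in WT. The largest Klf7 value was 1.21 ± 0.85 in ST-HSC (adjusted p = 0.999), with 0.56 to 2.35 when 1 library was left out.

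Members whose genotypes did not overlap numbered 2 of 9 in LT-HSC (Klf12 and Klf13), where 7.04% of all genes tested did not overlap, 2 of 9 in ST-HSC (Klf9 and Klf13, 8.2%), 3 of 8 in CMP (Klf2, Klf6 and Klf13, 15.8%), 3 of 8 in GMP (Klf2, Klf6 and Klf9, 13.2%), 2 of 8 in MEP (Klf4 and Klf6, 13.1%) and 1 of 8 in CLP (Klf2, 4.04%). Klf12 in LT-HSC was the only higher one among them. Without scaling, Klf12 in LT-HSC and Klf2 in CLP overlapped.

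**Figure D4:**
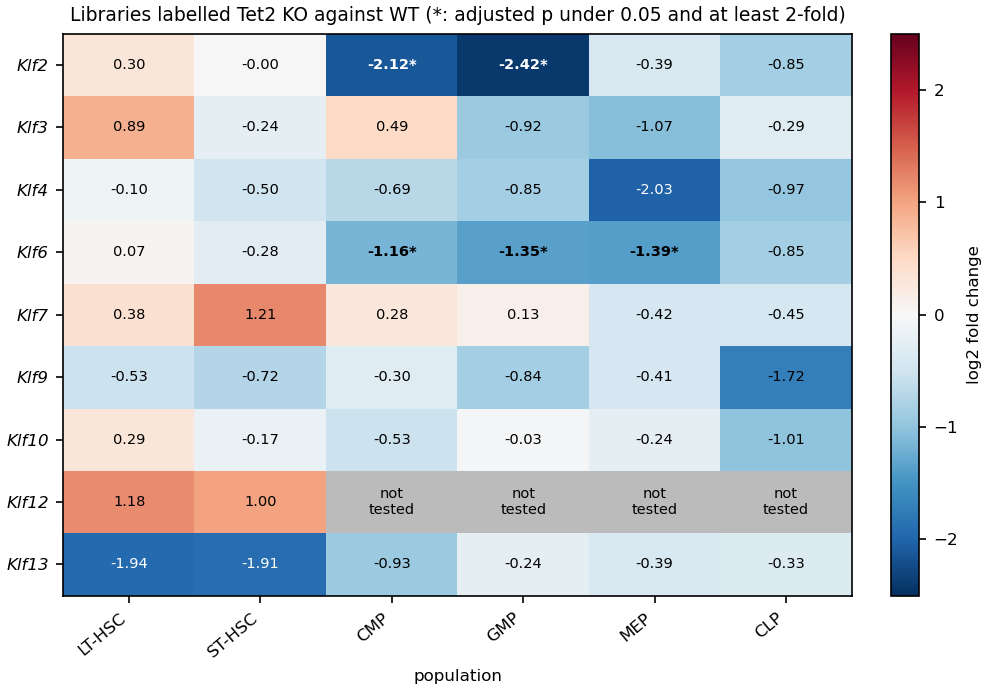
Log2 fold change of each member in libraries labelled Tet2 KO against WT in 6 populations, with red for higher and blue for lower in Tet2 KO and an asterisk at each call. The called cells are Klf2 in CMP and GMP and Klf6 in CMP, GMP and MEP, while Klf13 has its lowest values, −1.94 and −1.91, in LT-HSC and ST-HSC.

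Other genes of the pathway were read from fixed lists of other family members, cofactors, upstream factors and targets. Of 11 further KLF and SP factors, 8 were tested in CMP and in GMP and 1 and 2 were called, all lower in Tet2 KO. Of all genes, 3.92% and 4.07% were called lower there. Klf11, a Sin3A-recruiting repressor close to Klf10, fell from 46.9 ± 10.7 to 10.6 ± 1.91 CPM in GMP (log2 fold change −2.17, adjusted p = 6.1e-05) and from 36.3 ± 6.15 to 14.4 ± 4.35 CPM in CMP (−1.34, adjusted p = 0.0095). Sp3 fell from 93.7 ± 26.5 to 26.3 ± 12.6 CPM in GMP (−1.87, adjusted p = 0.0094). Of 10 cofactors, such as Ctbp1, Sin3a and Ep300, 1 was called. It was Hdac2 in GMP, where 4.07% of all genes were called lower. Hdac2 held 20.3 ± 3.85 CPM there in Tet2 KO against 61.8 ± 16.0 CPM in WT (−1.64, adjusted p = 0.00048). None of 12 upstream factors, such as the kinase Mapk7, the Mef2 factors that induce Klf2, Foxo1 and the Smads of the TGF-beta route to Klf10, was called in any population by edgeR. The medians of these lists in CMP, GMP and MEP ran from −0.12 to 0.08 on the log2 scale.

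Of 8 target genes, S1pr1, the receptor for lymphocyte egress that Klf2 induces, fell in CMP from 29.0 ± 7.26 to 13.5 ± 3.53 CPM (log2 fold change −1.12, adjusted p = 0.029) and in MEP from 9.62 ± 4.00 to 2.17 ± 0.781 CPM (−2.16, adjusted p = 0.013). Smad7, the inhibitor of TGF-beta signalling that Klf10 represses, fell in CMP from 19.4 ± 5.10 to 5.92 ± 2.77 CPM (−1.73, adjusted p = 0.041). Itgb7, a homing integrin, fell in GMP from 5.87 ± 2.40 to 1.96 ± 0.805 CPM (−1.60, adjusted p = 0.039). No other target gene was called in any population. Of all genes, 3.92% in CMP, 4.07% in GMP and 4.21% in MEP were called lower. The median over the targets was −0.66 in LT-HSC, −0.23 in ST-HSC, −1.11 in CMP, −0.38 in GMP, −0.84 in MEP and −0.14 in CLP. The summed targets did not overlap in ST-HSC, at 545.5 to 744.7 CPM in WT and 309.1 to 500.3 CPM in Tet2 KO, and overlapped in the other 5 populations. Whether the targets moved with the members was not tested.

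Cells switch on immediate early genes within minutes of a stimulus, cell isolation included. Of 12 such genes, 6 were called lower in Tet2 KO in CMP, 3 in GMP and 4 in MEP, where 3.92%, 4.07% and 4.21% of all genes were, and 0 in LT-HSC, ST-HSC and CLP, and all 12 had a negative value in CMP, GMP and MEP. Their median log2 fold change was −1.14 in CMP, −0.78 in GMP, −1.10 in MEP and −1.46 in CLP, against 0.35 in LT-HSC and 0.10 in ST-HSC. The CLP value depends on the scaling, without which the median of all genes there moved from 0.07 to 0.61. Dusp1, a phosphatase of stress kinases, fell from 783 ± 164 to 43.6 ± 14.5 CPM in GMP (log2 fold change −4.196, adjusted p = 6.4e-06), and its log2 fold changes in CMP and MEP were −2.82 and −2.53. Those of Ier2 were −2.64 in CMP and −2.73 in MEP, of Junb −2.27 and −2.68, of Atf3 −2.26 in CMP and −2.38 in GMP, and of Jun −2.72 in GMP and −1.08 in MEP, all called. Summed over the list, WT CMP libraries held 2988 to 4788 CPM and Tet2 KO ones 799 to 1825 CPM, WT GMP 2690 to 3628 and Tet2 KO GMP 923 to 1847 CPM, and WT MEP 1152 to 1452 and Tet2 KO MEP 269 to 646 CPM. The sums were higher in CLP, at 19590 to 29830 CPM in WT and 4973 to 11520 CPM in Tet2 KO. In LT-HSC they were 2536 to 3570 and 2454 to 4242 CPM, and in ST-HSC 2428 to 3824 and 2290 to 4086 CPM. The sums did not overlap in CMP, GMP, MEP and CLP and overlapped in the stem cells. Klf2 was not called in MEP, nor Klf2 or Klf6 in CLP. Without scaling the CLP sums were 13900 to 17660 CPM in WT and 3658 to 8751 CPM in Tet2 KO. Their part in the Klf2 and Klf6 results was not tested.

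Markers of other cell types also moved in places. In CMP, 3 of 5 MEP markers were called higher in Tet2 KO, Ermap by 2.14, Car1 by 2.03 and Epor by 1.03 on the log2 scale. Of all 16047 genes tested there, 105 were called higher. The summed MEP markers lay between 547.9 and 1562 CPM in WT CMP libraries and between 2799 and 5680 CPM in those labelled Tet2 KO. None of the 5 MEP markers was at 0 in every library of either group. The 5 HSC, 6 GMP and 4 CLP markers tested in CMP all had negative values, without a call. Their medians were −0.95, −0.36 and −1.66 on the log2 scale. Klf2 and Klf6 are lower and Klf3 is higher in MEP than in CMP, and the part of these marker differences in the CMP results was not tested. In GMP none of the 6 GMP markers and 5 MEP markers was called, and the summed MEP markers lay at 10.2 to 25.6 CPM in WT and 13.8 to 26.6 CPM in Tet2 KO. None of the 7 genes of the sorting gates was called in GMP either, but their sums did not overlap, at 1148 to 1267 CPM in WT and 1289 to 1491 CPM in Tet2 KO, and their part in the GMP results was not tested. Among megakaryocyte markers Gp1bb was lower in Tet2 KO CMP (−4.25) and MEP (−4.86) and Itga2b higher in GMP (1.12), and the erythroid gene Hba-a1 was lower in MEP (−1.38). No marker of monocytes, neutrophils, B cells or T and NK cells was called in any population. The CLP libraries were uneven, with summed GMP markers of 4.77 to 3177 CPM in WT and 2.65 to 12450 CPM in Tet2 KO. Tet2 KO CMP libraries detected 19119 to 19463 genes and WT ones 18569 to 19012.

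The pattern most like that of Klf2 over the 46 libraries was that of Klf6, and the reverse held as well (Pearson r of log2 CPM = 0.958, 0.970 within WT and 0.954 within Tet2 KO, among 8877 genes of at least 10 CPM on average). Next to Klf2 came Fosl2 (r = 0.890) and Ebi3 (0.886), and next to Klf6 came Rgs2 (0.910) and Nr4a1 (0.909). Klf4 was closest to Nr4a1 (0.921), Cytip (0.881) and Egr1 (0.878). Nr4a1 and Egr1 are immediate early genes. Klf10 was closest to Selenow (0.849), Ttc39b (0.819) and Syf2 (0.787), and Klf12 to Rit1 (0.825), Ccnt1 (0.818) and 2310001H17Rik (0.789). Klf13 was closest to Actb (0.8291), Slc39a1 (0.804) and Csrp1 (0.793). Within Tet2 KO and within WT, r was 0.910 and 0.094 for Actb, 0.820 and 0.413 for Slc39a1, and 0.860 and 0.116 for Csrp1. The repressor Klf3 was closest to Ugcg (0.720), Ctse (0.718) and Lrrc8c (0.669), Klf7 to Mef2c (0.750, and 0.5259 within WT and 0.894 within Tet2 KO), Entpd1 (0.730, 0.535 and 0.907) and Stat3 (0.718, 0.6003 and 0.824), and Klf9 to Trmt61b (0.798), Cdc42bpa (0.798) and Hspb11 (0.765). By Spearman rho at least 2 of the 3 genes changed for 6 of the 9 members, and Trmt61b, Hspb11 and Cdc42bpa ranked 533, 255 and 77 for Klf9 and Actb 31 for Klf13. Between members, Klf4 and Klf6 had r = 0.845 and Klf2 and Klf4 0.818, while Klf2 and Klf3 had −0.376 and Klf12 and Klf13 −0.400. The libraries share mice, populations and genotypes, so these values describe a pattern over groups and carry no p.

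**Figure D5:**
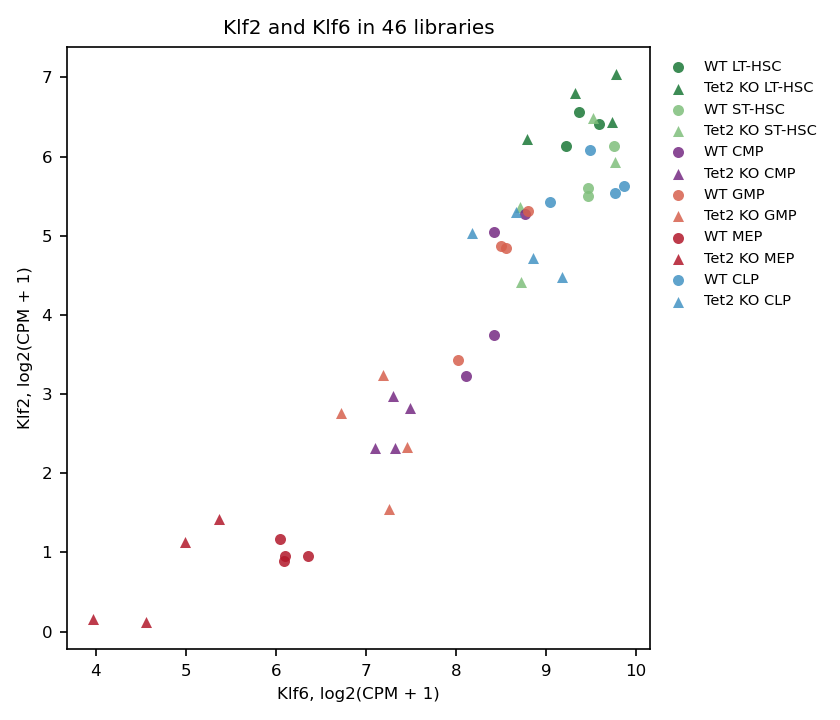
Klf2 against Klf6 in the 46 libraries of the first table, each as log2(CPM + 1), with populations by colour, WT as circles and Tet2 KO as triangles. Points run along one band from MEP at the lower left to LT-HSC at the upper right, and the Tet2 KO CMP and GMP libraries sit below the WT ones on both axes.

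In the second set, LT-HSC of WT, Sting KO and DKO mice gave no call among the members. Of all genes tested, 0%, 0.657% and 0.159% were called for Sting KO against WT, DKO against WT and DKO against Sting KO. In each of these comparisons 0 members had an unadjusted p under 0.05 in edgeR, and DESeq2 called 0, 1 (Klf3, against WT) and 0. That Klf3 call rests on WT libraries at 8.51, 0 and 26.3 CPM and DKO libraries at 0.0617, 0.0137 and 0 CPM. All 9 members were tested for Sting KO against WT, and 8 in the DKO comparisons, where Klf3 was filtered. Klf6 again led per kb in all 3 groups, with 731, 757 and 1320 CPM in WT, 805, 765 and 441 CPM in Sting KO and 387, 626 and 711 CPM in DKO. The DKO libraries all lay under the lowest WT library (log2 fold change −0.77 ± 0.34, adjusted p = 0.39, and −0.93 to −0.42 when 1 library was left out).

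Klf4 held 8.67, 2.15 and 0.0464 CPM in DKO, below WT at 10.3, 52.6 and 37.8 CPM and below Sting KO at 41.2, 26.8 and 36.2 CPM. The groups did not overlap, but the log2 fold changes of −3.25 ± 2.09 and −3.19 ± 2.08 had adjusted p of 0.65 and 0.89 and ran from −4.97 to −2.66 and from −4.96 to −2.65 when 1 library was left out, and with 3 against 3 libraries an exact permutation cannot go below 0.10. Klf9 held 53.8, 38.2 and 29.8 CPM in Sting KO, above WT at 18.2, 27.2 and 10.1 CPM, without a call, and without scaling the groups overlapped. Klf4, Klf6 and Klf9 are named here because of these values. For each of them the exact permutation p was 0.10, the smallest that 3 against 3 libraries allow. The share of all genes without overlap was not counted in this set. Klf13, which differed between the genotypes in the first set, held 192 ± 63.5 CPM in WT, 312 ± 133 CPM in Sting KO and 245 ± 121 CPM in DKO, and the groups overlapped. Klf10 ran from 191 to 594 CPM over the 9 libraries, Klf2 from 35.7 to 125.6 CPM and Klf7 from 0.170 to 88.2 CPM, while Klf3 and Klf12 were at 0 in 3 and 2 of them. The tables were made separately, so no level was compared across them.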

How the data were processed

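Reads of each library, made by a SMART-Seq2 based protocol that does not mark strand, were trimmed with Trim Galore and mapped with Hisat2 to mm10 by the authors (the processing notes also list mm9), and the deposited values are raw counts of reads per gene, not normalized. The program that counted them and its annotation are not given in the sources used here, and the submitters' processing notes list other tool versions (Trim Galore 0.6.7, HISAT2 7.5.0) than the methods. The second table also holds gene lengths per the file headers. In it, 2 broken lines and 4 rows of repeated names were not used, which left 35972 genes. All 55 columns were matched to libraries by name.

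Counts were scaled by TMM and tested by the quasi-likelihood method of edgeR 4.0.16 (R 4.3.3; low genes dropped by filterByExpr, prior count of 2 for log2 values), adjusted over all genes tested. Tet2 KO was set against WT within each population, populations were compared within a genotype in 1 fit of its 22 WT or 24 Tet2 KO libraries, and the interaction used all 46. The second table was tested on its own. Members were called at an adjusted p of 0.05 and 2-fold. For single members log2 CPM was permuted over libraries, exactly and two-sided. Alternatives were no scaling factor and, for the interaction, the mouse as a block (both chosen after seeing the data), and DESeq2 1.42.0, RLE scaling, no low-count filter, other sets of libraries, a replicate block, adjusted p alone, unscaled CPM, Spearman correlation for likeness, and leaving out each library.

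All 9 members are named. Their fold changes and p are given where called, and for the largest change per population between genotypes. Of each list up to 4 called genes per direction are named, and for each member the 3 genes of highest Pearson r. The members and lists were chosen with earlier results of these data known. Within a genotype, the same number is taken as the same mouse, so that the populations would be paired by source. Correlations of deviations between same-mouse libraries ran from −0.080 to 0.329. Whether libraries come from separate mice is read from the numbers in the labels. On that reading, p-values between genotypes within a single population, and those of the second set, measure the spread between mice. The main fits between populations, over populations and of the interaction had no block on the mouse. They take libraries that share mice as independent, so their p-values do not measure the spread between mice alone. No 2 libraries were identical. Python 3.11.15, pandas 2.3.3, numpy 2.4.6 and matplotlib 3.10.9 were used for summaries and plots.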

Additional observations from a re-analysis of the deposited data

Results flagged for a closer look

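In 13 of 88 groups of 4 libraries, the highest or lowest library of a member lay far from the others by Dixon's test at the 95% level. Chance gives about 1 in 20 such groups, and groups of 3 were not tested. For Klf3, WT MEP replicate 5 was low at 40.21 CPM (others 51.18 to 51.96), Tet2 KO MEP replicate 3 high at 45.26 CPM (others 14.88 to 17.25) and WT CLP replicate 4 high at 25.2 CPM (others 5.87 to 8.24). For Klf6, WT MEP replicate 3 was high at 81.16 CPM (others 65.3 to 67.56). For Klf7, WT CMP replicate 3 was low at 3.02 CPM (others 5.83 to 6.40). For Klf10, WT CMP replicate 3 was high at 100.9 CPM (others 42.92 to 50.84) and Tet2 KO GMP replicate 2 high at 33.55 CPM (others 17.22 to 19.94). For Klf13, Tet2 KO ST-HSC replicate 2 was high at 89.1 CPM (others 56.45 to 59.85).

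The other 5 were Klf12 groups in which 1 library alone had counts and the rest were at 0, so that the gap is the whole range by construction and the chance rate does not apply: Tet2 KO CMP replicate 5 (0.06787 CPM), WT GMP replicate 5 (0.4906 CPM), Tet2 KO GMP replicate 4 (0.543 CPM), Tet2 KO MEP replicate 3 (0.1062 CPM) and Tet2 KO CLP replicate 5 (0.8067 CPM).

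The difference between genotypes in Klf13 varied over the 6 populations, with an adjusted p of 0.002876 for the interaction (edgeR, 46 libraries). Libraries labelled Tet2 KO lay below every WT library in LT-HSC, ST-HSC and CMP, and overlapped WT in GMP, MEP and CLP.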

How the results depend on the processing

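Of 48 fold changes reported with 336 values under other settings, 316 kept their direction and their side of the threshold, 9 lost the call, 8 gained one and 3 reversed, all without a scaling factor: Klf3 (0.30) and Klf13 (0.25) between genotypes in CLP, and Klf13 for CLP against ST-HSC in WT (−0.56). Leaving out 1 library, Klf3 in CLP ran from −1.04 to 0.44 between genotypes and Klf13 for CMP against ST-HSC in WT from −0.048 to 0.61, and none of these was called. The members called between genotypes went from 0 to 1 in LT-HSC and in ST-HSC with DESeq2 or with all 46 libraries in 1 fit (Klf13 each time), from 2 to 1 in CMP without the low-count filter, with the replicate block or with all 46 libraries in 1 fit (Klf2 lost), from 1 to 3 in MEP with DESeq2 (Klf3 and Klf4 gained), and from 0 to 1 in CLP with all 46 libraries (Klf10, log2 fold change −1.01, adjusted p = 0.020). Between populations they went from 1 to 2 with DESeq2 and to 0 in a fit of CLP and ST-HSC alone in WT, and from 3 to 5 with DESeq2 for CMP against ST-HSC in Tet2 KO (Klf10 and Klf12 gained). DKO against WT went from 0 to 1 with DESeq2. Without a scaling factor, CLP against ST-HSC went from 1 to 2 in Tet2 KO (Klf10 gained, log2 fold change −1.01), and from Klf4 to Klf9 in WT. The interaction went from 1 to 2 members (Klf6 gained) without a scaling factor or with the replicate block on mice, and from 592 to 1199 and 463 genes. Both settings were chosen after seeing the data. Leaving out 1 library gave 1 to 2 members in CMP and 0 to 2 in MEP between genotypes, and between populations 1 to 2 for CMP against ST-HSC, 1 to 3 for CLP against ST-HSC and 1 to 2 for GMP against CMP in WT, and 1 to 2 for CLP against ST-HSC and 1 to 3 for MEP against CMP in Tet2 KO. Fewer libraries enter those fits, and for the other settings the cause was not tested.

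WT and Tet2 KO libraries of the same number come from different mice and share only a number. Deviations of such pairs had a median correlation of 0.0425, with 3 of 22 over 0.1, and 10 of 22 libraries correlated best with their own number. With the replicate block between genotypes Klf2 in CMP had a log2 fold change of −1.89 and an adjusted p of 0.099. The block on mice within a genotype changed no other call than those given with the results. RLE scaling changed none of the 48 calls, and 9 of 135 mean levels moved by over 1 SD without scaling. With 200 cells a library, counts of 0 for Klf12 do not show that the gene is silent.

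The number of all genes called also moved by over 1.5 times. Leaving out 1 library did so too. In WT, 18 against 35 were called for ST-HSC against LT-HSC without LT-HSC replicate 3. CMP against ST-HSC gave 640 against 1001 without ST-HSC replicate 2, and GMP against CMP 387 against 630 without GMP replicate 5. In Tet2 KO, 8 against 23 were called for ST-HSC against LT-HSC without LT-HSC replicate 4. CMP against ST-HSC gave 303 against 646 without ST-HSC replicate 3, and GMP against CMP 233 against 598 without GMP replicate 3. Between genotypes DESeq2 called 233 genes in LT-HSC, 332 in ST-HSC, 1234 in CMP, 1045 in MEP and 472 in CLP against 4, 3, 734, 651 and 1 with edgeR, and with all 46 libraries in 1 fit edgeR called 20, 21, 285, 423 and 1477 in these and 219 against 725 in GMP. Without a fold minimum 1105 were called in CMP. With the replicate block 2 were called in LT-HSC and 0 in CLP, where 2 were called without a scaling factor. Between WT populations DESeq2 called 774 against 35 for ST-HSC against LT-HSC. DESeq2 and a fit of the 2 populations alone gave 2247 and 2012 against 1001 for CMP against ST-HSC, 1442 and 2192 against 630 for GMP against CMP, where 963 were called without a fold minimum, and 2372 and 2285 against 1292 for MEP against CMP. The fit of the 2 populations gave 2247 against 4901 for CLP against ST-HSC and 4904 against 2950 for GMP against MEP. In Tet2 KO, DESeq2 called 843 and the fit without the low-count filter 15 against 23 for ST-HSC against LT-HSC. DESeq2 and the 2 populations alone gave 1967 and 1511 against 646 for CMP against ST-HSC, 1706 and 2747 against 598 for GMP against CMP, 2049 and 1559 against 703 for MEP against CMP and 4578 and 5386 against 3051 for GMP against MEP, and the 2 populations alone 1146 against 3912 for CLP against ST-HSC. In the second set DESeq2 called 414, 1314 and 794 and all 9 libraries in 1 fit 1, 123 and 75 against 0, 64 and 15, the fit without the low-count filter 105 and 47 in the DKO comparisons, and the replicate block 26 and 0.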
